A study of Mus musculus with 17 samples.

Results

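The mouse C-type lectin genes named Clec followed by a number were followed in periprostatic fat, a depot that surrounds the prostate. Members were taken by symbol alone, from probe sets assigned to exactly 1 gene, but the family was chosen with earlier results of these data known. In all, 31 such genes were measured among 22180 genes. Each of the 31 genes had 1 probe set. A further probe set was assigned to both Clec9a and Clec1b and is described separately. The 17 mice were C57BL/6J males, and the RNA of each was hybridised to its own array (Affymetrix Mouse Gene 2.0 ST). The restricted group (HFD+CR, n = 5) ate a high-fat diet with 60 kcal% fat freely for 12 weeks and was then held at a 30% calorie restriction for 7 weeks, with a daily ration of 70% of what the high-fat mice ate. The high-fat group (HFD, n = 6) ate the 60 kcal% fat diet ad libitum throughout, and mice of the low-fat group (LFD, n = 6) had free access to a 10 kcal% fat diet. Diets began at 6 weeks of age and all mice were killed at 25 weeks.

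C-type lectin receptors carry a folded domain that in many members binds sugars and in others binds lipids or proteins. Several sit on macrophages, dendritic cells and other myeloid cells and signal in opposite ways: dectin-1 (Clec7a) and the receptors that pair with the adaptors encoded by Fcer1g and Tyrobp activate the kinase Syk and the Card9 complex, whereas receptors with an inhibitory motif, such as those of Clec12a and Clec4a2, recruit phosphatases that restrain the cell. In the adipose tissue of obese mice, macrophages gather round dying fat cells, and they are a known source of several of these receptors. Other genes with Clec symbols encode ligands of natural killer cell receptors, secreted proteins, endothelial proteins or an intracellular protein.

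Values are log2 array signals as deposited, and levels are compared between mice only within a gene, since signals of different probe sets have no common scale. Array medians lay between 7.03 and 7.15. A signal below them was not shown to be above background. Over 8 adipocyte genes the mean signal was 12.6 to 12.8 in HFD+CR mice, 12.4 to 12.6 in HFD mice and 12.6 to 12.8 in LFD mice, above the array medians in every group. Of these genes 6 were lower and 1 higher in HFD than in LFD, where 11.3% and 16.5% of all genes were. In HFD+CR 5 of them were higher than in HFD, where 7.69% of all genes were. Their part in the Clec results was not tested. Some arrays carried transcripts of neighbouring tissues. The mean of 8 skeletal muscle genes reached 9.40 in HFD+CR mouse 2 and 10.6 in LFD mouse 2. Among HFD mice it was highest in mouse 6, at 8.24 (HFD median 7.20). That array was kept where arrays with muscle or gland transcripts were left out. The mean of 8 gland epithelium genes reached 7.63 in HFD mouse 3 and 7.64 in LFD mouse 3. That of 5 male germ cell genes reached 8.93 in HFD+CR mouse 1. Differences are log2 differences ± SE, and adjusted p-values of genes come from limma, adjusted by Benjamini-Hochberg over the 22180 genes. A gene was said to be higher or lower, or to rise or fall, where its adjusted p was under 0.05.

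In HFD mice, 12 of the 31 Clec genes were higher than in LFD mice and 1 was lower. The largest rises were those of Clec12a, an inhibitory myeloid receptor, and Clec7a, the receptor for fungal beta-glucans, at 5.38-fold and 4.33-fold. The rise took in 2 of 5 dectin-1 cluster receptors, 6 of 9 dectin-2 cluster receptors, 2 of 4 other myeloid and endocytic receptors and 2 of 6 secreted, endothelial and intracellular members, and none of 7 Clr genes. The 12 genes are 38.7% of the members, where 16.5% of all genes were higher, and the gene that was lower is 3.23% of them, where 11.3% of all genes were lower. The median difference was 0.15 over the members and -0.00 over all genes. With arrays centred on their medians the members still numbered 12 higher and 1 lower, whereas 13.9% of all genes were then higher and 15.1% lower. Without HFD mouse 5 or LFD mouse 4, 2 members were lower. Of the members, 6 were higher by at least 2-fold, and 4 when signals below the array median were raised to it. For 6 members every HFD mouse stood above every LFD mouse and for 0 the reverse held, where 14.3% of all genes had groups without overlap in either direction. In whole tissue, more cells of a type cannot be told apart from more RNA per cell.

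Calorie restriction on the high-fat diet went with lower signals of many of these genes. In HFD+CR mice 11 members were lower than in HFD mice, 35.5% of the members, where 11.3% of all genes were lower. No member was higher, where 7.69% of all genes were. In the limma fit 13 members had an unadjusted p under 0.05, and all of these had negative differences. The median difference of the members was -0.13, against -0.00 over all genes. For 7 members every HFD+CR mouse stood below every HFD mouse, where 13.7% of all genes had groups without overlap in either direction.

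Against LFD mice, 4 members were higher in HFD+CR mice, where 5.8% of all genes were, and 1 was lower, where 3.28% of all genes were. The 4 were Clec12a, Clec7a, Clec4a3 and Clec1a, and the 1 was Clec2g. Groups did not overlap for Clec12a and Clec2g alone among the members, where 6.67% of all genes had no overlap. The count of higher members was 2 without HFD+CR mouse 1, HFD+CR mouse 4 or LFD mouse 6. The median difference was 0.05 over the members and -0.00 over all genes. The 3 comparisons share arrays with each other and are not independent. By calls, 3 genes (Clec12a, Clec7a and Clec4a3) were higher in HFD than in LFD, lower in HFD+CR than in HFD and still higher in HFD+CR than in LFD. Another 7 (Clec4a1, Clec4a2, Clec4b1, Clec4d, Clec5a, Clec10a and Clec11a) had the same first calls with no call between HFD+CR and LFD. Clec3b and Clec4n were called only as higher in HFD than in LFD, and 16 members had no call in any comparison.

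**Figure D1:**
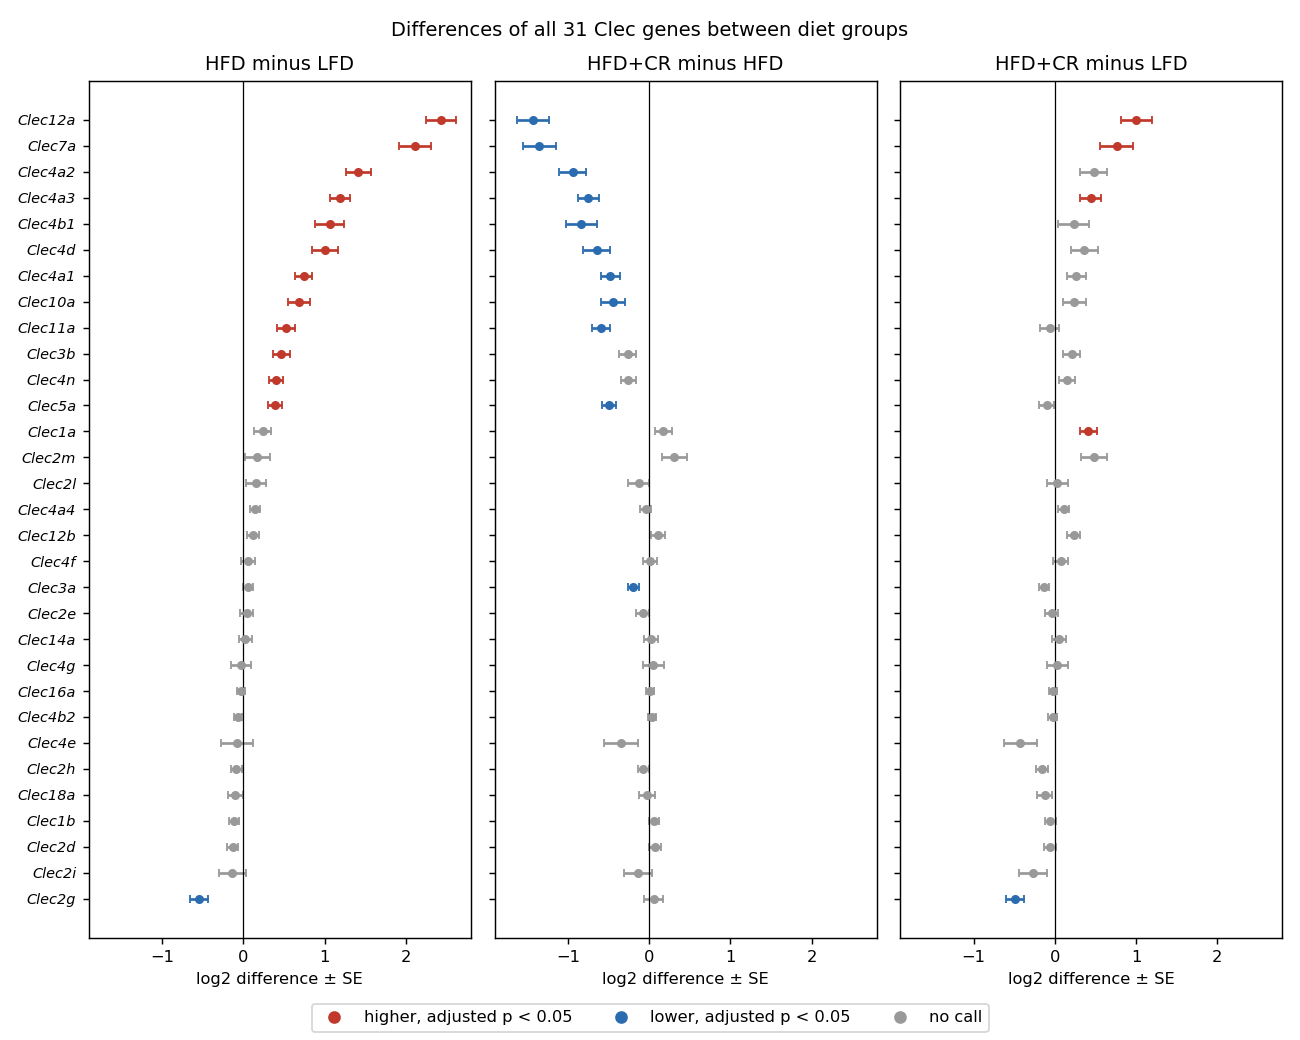
Log2 difference (x axis, ± SE) of each of the 31 Clec genes (y axis) for HFD minus LFD, HFD+CR minus HFD and HFD+CR minus LFD, with red for higher, blue for lower and grey for no call at adjusted p under 0.05. The rises at the top of the first panel run up to 2.43 (Clec12a), the falls in the second down to -1.43 (Clec12a), and Clec2g is the only member on the lower side with a call in either comparison with LFD.

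Among the receptors of the dectin-1 cluster, Clec12a had the largest difference of the family. The receptor has an inhibitory motif and is known to recognise uric acid crystals. Its signal (probe set 17463509) was 10.28, 9.32, 9.56, 10.08 and 9.83 in HFD+CR mice, against 10.87 at the lowest, 11.18 at the median and 11.69 at the highest in HFD mice, and 8.39, 8.84 and 9.27 in LFD mice on the same measures. The 3 groups did not overlap, with HFD highest and LFD lowest. The difference was 2.43 ± 0.18 for HFD minus LFD (adjusted p = 3.39e-08), -1.43 ± 0.19 for HFD+CR minus HFD (adjusted p = 4.89e-05) and 1.00 ± 0.19 for HFD+CR minus LFD (adjusted p = 0.00284). Each of these calls held without any 1 mouse.

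Clec7a encodes dectin-1, which binds beta-glucans and signals through a motif in its own cytoplasmic tail. Its signal (probe set 17471541) was 10.11, 8.91, 9.31, 9.88 and 9.51 in HFD+CR mice, against 10.62, 10.85 and 11.34 (lowest, median and highest) in HFD mice and 8.28, 8.77 and 9.27 in LFD mice. The HFD mice stood above all others, whereas HFD+CR mouse 2 lay below 3 of the LFD mice. Clec7a differed by 2.12 ± 0.19 for HFD minus LFD (adjusted p = 2.09e-07), -1.35 ± 0.20 for HFD+CR minus HFD (adjusted p = 0.000126) and 0.76 ± 0.20 for HFD+CR minus LFD (adjusted p = 0.0226). The call for HFD+CR minus LFD was lost without HFD+CR mouse 1 (adjusted p = 0.0725), HFD+CR mouse 4 (0.0702), LFD mouse 4 (0.0509) or LFD mouse 6 (0.0522).

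Clec1a was the only other gene of this cluster with a call, and its pattern differed. Clec1a, a receptor of endothelial and myeloid cells that is known to bind fungal melanin, had signals of 8.32, 8.45, 8.63, 8.35 and 8.71 in HFD+CR mice, 8.13, 8.31 and 8.52 (lowest, median and highest) in HFD mice and 7.71, 8.08 and 8.38 in LFD mice. Only LFD mouse 1 reached into the HFD+CR range. Clec1a was higher by 0.41 ± 0.11 in HFD+CR than in LFD (adjusted p = 0.0192), with differences of 0.24 ± 0.10 for HFD minus LFD (adjusted p = 0.0945) and 0.17 ± 0.11 for HFD+CR minus HFD (adjusted p = 0.308). The call was lost without HFD+CR mouse 3 (adjusted p = 0.058) or HFD+CR mouse 5 (0.0593). Clec12b, an inhibitory receptor next to Clec12a, and Clec1b, the platelet receptor for podoplanin, lay below the array median on all 17 arrays, with adjusted p of 0.0856 or more in every comparison. The probe set assigned to both Clec9a, the dendritic cell receptor for actin of dead cells, and Clec1b averaged 7.48 ± 0.14 in HFD+CR, 7.76 ± 0.19 in HFD and 7.27 ± 0.29 in LFD mice (SD, n = 5, 6 and 6). It differed by 0.49 ± 0.12 for HFD minus LFD (adjusted p = 0.00462 over all probe sets), -0.28 ± 0.12 for HFD+CR minus HFD (adjusted p = 0.147) and 0.21 ± 0.12 for HFD+CR minus LFD (adjusted p = 0.393). Which of its genes gave that signal was not tested. Of 7 genes of type 1 conventional dendritic cells, 3 were higher in HFD than in LFD and 1 was lower, where 16.5% and 11.3% of all genes were. In HFD+CR 4 of them were lower than in HFD, where 11.3% of all genes were. Their part in the result of that probe set was not tested.

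**Figure D2:**
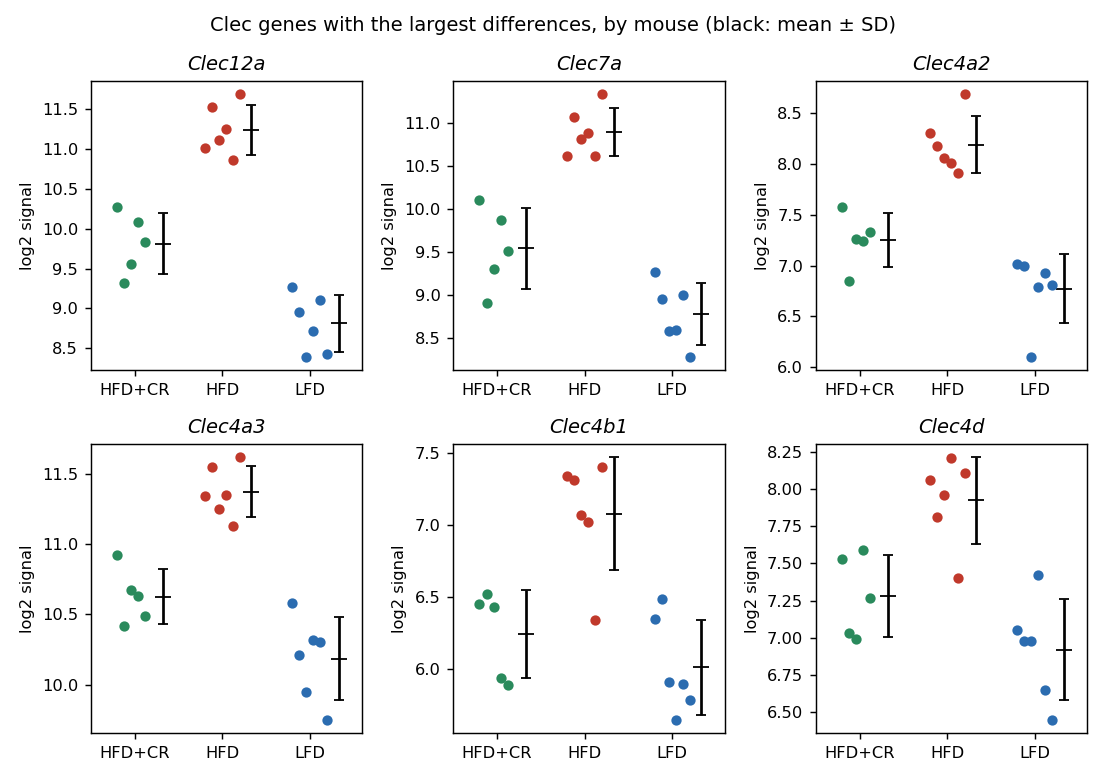
Log2 signal (y axis) in each mouse of the HFD+CR (green, n = 5), HFD (red, n = 6) and LFD (blue, n = 6) groups, with the group mean ± SD in black, for the 6 Clec genes with the largest HFD minus LFD differences. Every HFD mouse lies above every other mouse for Clec12a, Clec7a, Clec4a2 and Clec4a3, whereas HFD mouse 5 lies among the other groups for Clec4b1 (6.34) and Clec4d (7.40).

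The dectin-2 cluster, a run of neighbouring myeloid receptor genes, held most of the other changes. Clec4a2 encodes an inhibitory dendritic cell receptor known as DCIR1. It had signals (probe set 17462764) of 7.58, 6.85, 7.26, 7.24 and 7.33 in HFD+CR mice, 7.91, 8.12 and 8.69 (lowest, median and highest) in HFD mice and 6.10, 6.87 and 7.02 in LFD mice. The HFD mice stood apart, HFD+CR mouse 2 lay among the LFD mice, and all 6 LFD signals were below their array medians. Clec4a2 differed by 1.42 ± 0.16 for HFD minus LFD (adjusted p = 1.85e-06), -0.94 ± 0.16 for HFD+CR minus HFD (adjusted p = 0.000507) and 0.48 ± 0.16 for HFD+CR minus LFD (adjusted p = 0.0832). When lower signals were set to the array median, the first difference was 1.11. For the last, the adjusted p was 0.0403 without HFD+CR mouse 2.

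Clec4a3 (probe set 17462738), a close relative of Clec4a2, measured 10.92, 10.42, 10.67, 10.63 and 10.49 in HFD+CR mice, 11.13, 11.34 and 11.62 (lowest, median and highest) in HFD mice and 9.75, 10.26 and 10.58 in LFD mice. HFD mice were again above all others, and LFD mouse 1 lay within the HFD+CR range. Its differences were 1.19 ± 0.12 for HFD minus LFD (adjusted p = 8.61e-07), -0.75 ± 0.13 for HFD+CR minus HFD (adjusted p = 0.000452) and 0.44 ± 0.13 for HFD+CR minus LFD (adjusted p = 0.0389). Leaving out HFD+CR mouse 1, 3 or 4 or LFD mouse 3 or 6 ended the last call, with adjusted p of 0.116, 0.0826, 0.0767, 0.0803 and 0.0794 in that order. Clec4a1, another relative, measured 9.62, 9.45, 9.64, 9.48 and 9.22 in HFD+CR mice, 9.65, 9.94 and 10.20 in HFD mice and 8.85, 9.32 and 9.41 in LFD mice. The HFD mice did not overlap with either group, and HFD+CR mouse 5 lay within the LFD range. Clec4a1 rose by 0.74 ± 0.11 in HFD against LFD (adjusted p = 4.87e-05) and was lower in HFD+CR than in HFD by -0.48 ± 0.12 (adjusted p = 0.00632). Clec4a4, which encodes the dendritic cell receptor DCIR2, lay below the array median on every array, with no call.

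Clec4b1 encodes a receptor that pairs with the Fcer1g adaptor. It measured (probe set 17462756) 6.45, 6.52, 6.43, 5.94 and 5.89 in HFD+CR mice, 6.34, 7.19 and 7.40 (lowest, median and highest) in HFD mice and 5.65, 5.91 and 6.49 in LFD mice. HFD mouse 5 lay within the range of both other groups and the other HFD mice above it. HFD mouse 5 was also the HFD mouse with the lowest mean over 8 macrophage genes, at 10.9, and the part of this in its Clec signals was not tested. The differences were 1.06 ± 0.18 for HFD minus LFD (adjusted p = 0.000195) and -0.83 ± 0.19 for HFD+CR minus HFD (adjusted p = 0.00423). All HFD+CR and LFD signals and 2 of the HFD signals were below their array medians, and with array medians in their place the differences were 0.14 and -0.13, so that their sizes are not settled by these arrays. Clec4b2, the neighbouring relative, lay below the array median in all 17 mice and had no call. The Clec4a and Clec4b genes are close relatives, and how far their probe sets tell them apart was not tested.

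Clec4d, Clec4e and Clec4n encode MCL, Mincle and dectin-2, receptors for microbial glycolipids and mannose-rich sugars that signal with the Fcer1g adaptor, and they did not move alike. Clec4d (probe set 17462796) measured 7.53, 7.03, 6.99, 7.59 and 7.27 in HFD+CR mice, 7.40, 8.01 and 8.21 (lowest, median and highest) in HFD mice and 6.45, 6.98 and 7.42 in LFD mice. HFD mouse 5 was the low HFD value and LFD mouse 4 the high LFD value, and these alone overlapped between HFD and LFD. Clec4d differed by 1.01 ± 0.16 for HFD minus LFD (adjusted p = 9.67e-05), -0.64 ± 0.17 for HFD+CR minus HFD (adjusted p = 0.0103) and 0.36 ± 0.17 for HFD+CR minus LFD (adjusted p = 0.215). Without 4 arrays with muscle or gland transcripts the difference for HFD+CR minus HFD was -0.58 (adjusted p = 0.0644). These were HFD+CR mouse 2, HFD mouse 3 and LFD mice 2 and 3. In LFD mice 5 of 6 signals were below their array medians.

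Clec4e (probe set 17470627) measured 7.21, 7.93, 7.11, 6.95 and 7.10 in HFD+CR mice, 7.15, 7.55 and 8.08 (lowest, median and highest) in HFD mice and 7.26, 7.66 and 8.15 in LFD mice. The groups overlapped, and HFD+CR mouse 2 was the high value of its group. Its difference was -0.08 ± 0.20 for HFD minus LFD (adjusted p = 0.826), with a 95% interval of -0.49 to 0.34, -0.35 ± 0.21 for HFD+CR minus HFD (adjusted p = 0.289) and -0.43 ± 0.21 for HFD+CR minus LFD (adjusted p = 0.239). Clec4n was higher in HFD than in LFD by 0.40 ± 0.09 (adjusted p = 0.00203) and had a difference of -0.25 ± 0.09 for HFD+CR minus HFD (adjusted p = 0.0682). Its signal was 6.49 to 6.94 in HFD+CR mice, 6.65 to 7.18 in HFD mice and 6.42 to 6.73 in LFD mice. Of these, 5, 3 and 6 signals in HFD+CR, HFD and LFD mice lay below their array medians, and with lower signals raised to the array median the HFD minus LFD difference of Clec4n was 0.01.

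Of the other myeloid and endocytic receptors, Clec10a and Clec5a changed. Clec10a encodes the galactose-binding macrophage lectin MGL1. It measured 9.38, 9.12, 9.54, 9.31 and 9.41 in HFD+CR mice, 9.48, 9.83 and 10.20 (lowest, median and highest) in HFD mice and 8.66, 9.07 and 9.60 in LFD mice. Only LFD mouse 5 reached the HFD range, and HFD+CR mouse 3 alone exceeded the lowest HFD mouse. Clec10a was higher by 0.68 ± 0.14 in HFD than in LFD (adjusted p = 0.00082), and its difference of -0.44 ± 0.14 for HFD+CR minus HFD (adjusted p = 0.0354) lost its call without HFD+CR mouse 1, 2, 4 or 5 or HFD mouse 1, 2, 3 or 6, with adjusted p between 0.0533 and 0.0947. Clec5a encodes MDL-1, which signals through the Tyrobp adaptor. Its signal was 6.31, 6.24, 6.17, 6.24 and 6.07 in HFD+CR mice, 6.47, 6.63 and 6.98 in HFD mice and 6.14, 6.32 and 6.46 in LFD mice. The HFD mice stood above all others, yet all 17 signals lay below their array medians. Clec5a differed by 0.39 ± 0.08 for HFD minus LFD (adjusted p = 0.00181) and -0.49 ± 0.09 for HFD+CR minus HFD (adjusted p = 0.000676), and with lower signals raised to the array median by -0.01 and 0.02. Clec4f, the glycan receptor of liver Kupffer cells, and Clec4g, a lectin of liver and lymph node sinus endothelium, had no call. Clec4f was above its array median on 2 arrays and Clec4g on none. The other 3 Kupffer cell markers (Vsig4, Marco and Cd5l) had no call in any comparison either.

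Clec2 genes encode Clr proteins, several of which are ligands of Nkrp1 receptors on natural killer cells, and 6 of their 7 measured genes had no call. The exception was Clec2g. It measured (probe set 17463465) 5.96, 6.29, 5.85, 6.01 and 5.97 in HFD+CR mice, 5.63, 5.94 and 6.34 (lowest, median and highest) in HFD mice and 6.31, 6.53 and 6.67 in LFD mice. LFD mice were highest, with HFD mouse 2 alone reaching their range. Clec2g fell by 0.55 ± 0.11 in HFD against LFD (adjusted p = 0.000921) and by 0.49 ± 0.12 in HFD+CR against LFD (adjusted p = 0.011), and its difference for HFD+CR minus HFD was 0.06 ± 0.12 (adjusted p = 0.815). All its signals lay below their array medians, and with array medians in their place the fall in HFD was -0.01, so that no size can be given. Clec2d, whose product Clr-b is the ligand of an inhibitory Nkrp1 receptor, measured 11.80 to 12.05 in HFD+CR mice, 11.79 to 11.93 in HFD mice and 11.67 to 12.17 in LFD mice, with differences of -0.13 ± 0.07 for HFD minus LFD (adjusted p = 0.186) and 0.07 ± 0.07 for HFD+CR minus HFD (adjusted p = 0.574). Clec2i, whose product Clr-g is a ligand of the receptor of Klrb1f, differed by -0.13 ± 0.17 for HFD minus LFD (adjusted p = 0.624). Clec2m, placed with the Clr genes by symbol only, had a difference of 0.48 ± 0.16 for HFD+CR minus LFD (adjusted p = 0.0676), which was 0.28 without HFD+CR mouse 1. That mouse was at 8.65, against 7.43 to 7.78 in the rest of its group. Its array also had the highest male germ cell signal, whose part in the result was not tested.

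Of the secreted, endothelial and intracellular members, Clec11a, Clec3b and Clec3a had calls. Clec11a encodes osteolectin, a growth factor made by stromal cells of bone marrow. It measured 7.39, 7.21, 7.32, 7.09 and 7.05 in HFD+CR mice, 7.43, 7.81 and 8.03 (lowest, median and highest) in HFD mice and 7.04, 7.22 and 7.58 in LFD mice. All HFD+CR mice were below all HFD mice, and HFD mouse 5 lay among the LFD mice. Clec11a rose by 0.52 ± 0.11 in HFD against LFD (adjusted p = 0.00115) and differed by -0.59 ± 0.11 for HFD+CR minus HFD (adjusted p = 0.00112) and -0.07 ± 0.11 for HFD+CR minus LFD (adjusted p = 0.806). Clec3b, which encodes tetranectin, a secreted protein that binds plasminogen, had signals of 9.21, 9.12, 9.34, 8.86 and 8.80 in HFD+CR mice, 9.08, 9.35 and 9.62 in HFD mice and 8.74, 8.81 and 9.10 in LFD mice. HFD mouse 4 and LFD mouse 6 overlapped, and the HFD+CR mice spanned both groups. Clec3b was higher by 0.47 ± 0.10 in HFD than in LFD (adjusted p = 0.00183), with a difference of -0.27 ± 0.11 for HFD+CR minus HFD (adjusted p = 0.0997). Clec3a, a cartilage protein gene whose signals were below the array median in all mice, differed by -0.19 ± 0.06 for HFD+CR minus HFD (adjusted p = 0.0399). The call was lost without HFD+CR mouse 1, 3, 4 or 5 or HFD mouse 1, 2, 4 or 5, with adjusted p between 0.0511 and 0.123. Clec14a of endothelium, Clec16a, which acts in endosomes and mitophagy, and Clec18a had no call, with differences between -0.13 and 0.05 in the 3 comparisons.

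**Figure D3:**
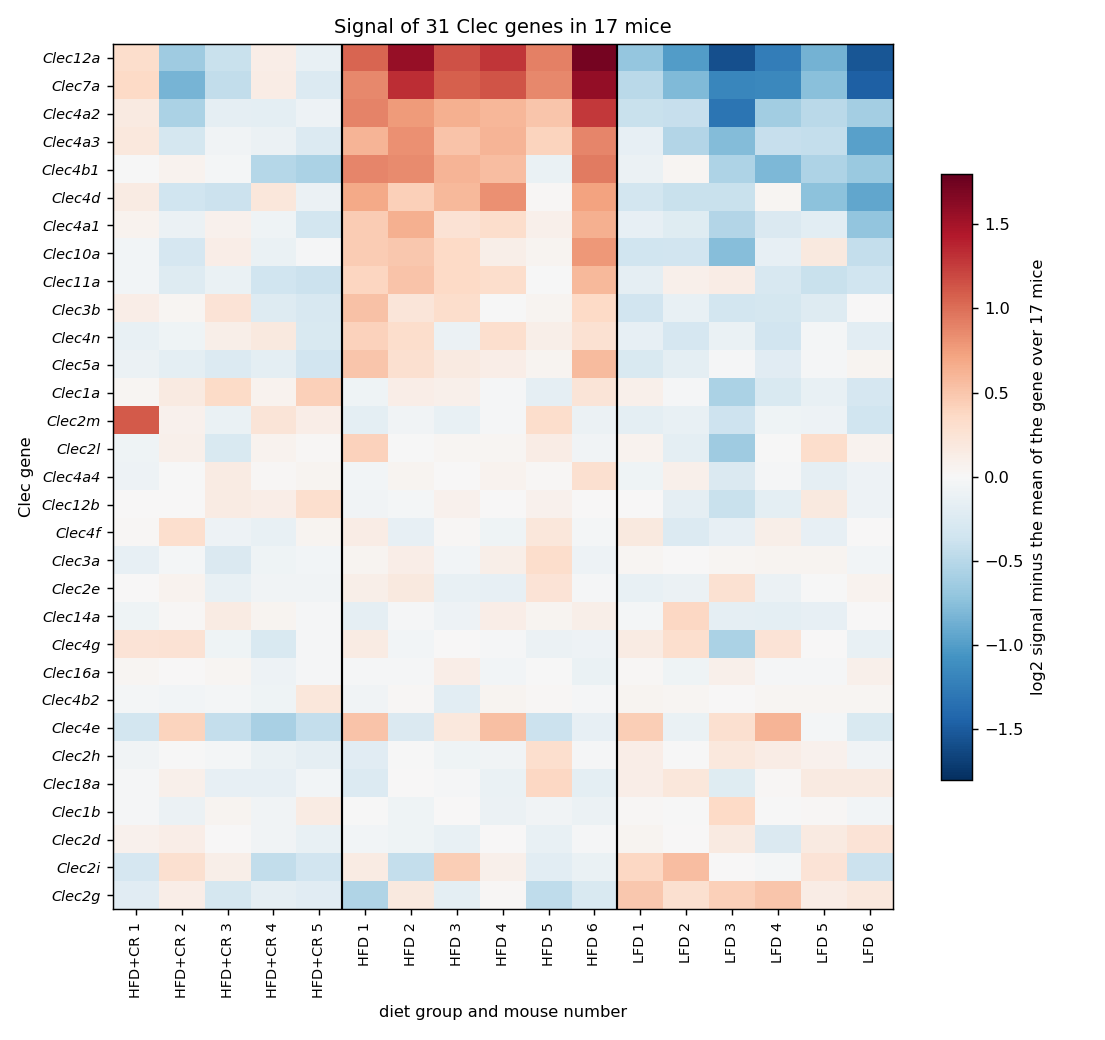
Log2 signal of each Clec gene (rows) minus its mean over the 17 mice, by mouse (columns: HFD+CR, HFD, LFD), with red above and blue below the gene's mean. The upper rows, ordered by the HFD minus LFD difference, are red in HFD mice, HFD mouse 5 is the palest of them in several rows, and Clec2m stands out in HFD+CR mouse 1 (8.65).

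Of the 31 members, 23 lie on chromosome 6 by RefSeq's mouse annotation (assembly GRCm38.p6), and the others on chromosomes 7, 8, 9, 11, 12 and 16. On chromosome 6, 14 pairs of measured members are direct neighbours, with no other protein-coding gene between them in that annotation. The difference between neighbours was taken on each array and compared between groups with a two-sided exact permutation test, with adjustment over 42 tests. It passed for 10 of the 14 pairs in HFD against LFD, for 7 in HFD+CR against HFD and for 5 in HFD+CR against LFD. In 8 of the 14 pairs 1 or both genes lay below the array median on all arrays. Of the other 6 pairs, 5, 3 and 2 passed in the same comparisons. A pair can pass where only 1 of its genes changed, so these counts largely repeat the calls of single genes. Other gene pairs were not tested, so the counts say nothing particular about neighbours. Clec4d minus Clec4e was 0.01 to 0.73 in HFD mice and -0.92 to -0.44 in LFD mice, a difference of 1.08 with no overlap (exact p = 0.00216, the smallest this design allows, adjusted p = 0.0114). Since 5 of 6 LFD signals of Clec4d lay below their array medians, the size of this difference is uncertain. In HFD+CR mice it ran from -0.90 to 0.64, with HFD+CR mouse 2 the low value. Clec12a minus Clec12b differed by 2.31 between HFD and LFD mice, and Clec4a3 minus Clec4a4 by 1.04, each without overlap (exact p = 0.00216). Clec1a minus Clec7a differed by -1.88, also without overlap. Clec12b and Clec4a4 were below the array medians throughout, so that their part in these differences is only bounded.

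**Figure D4:**
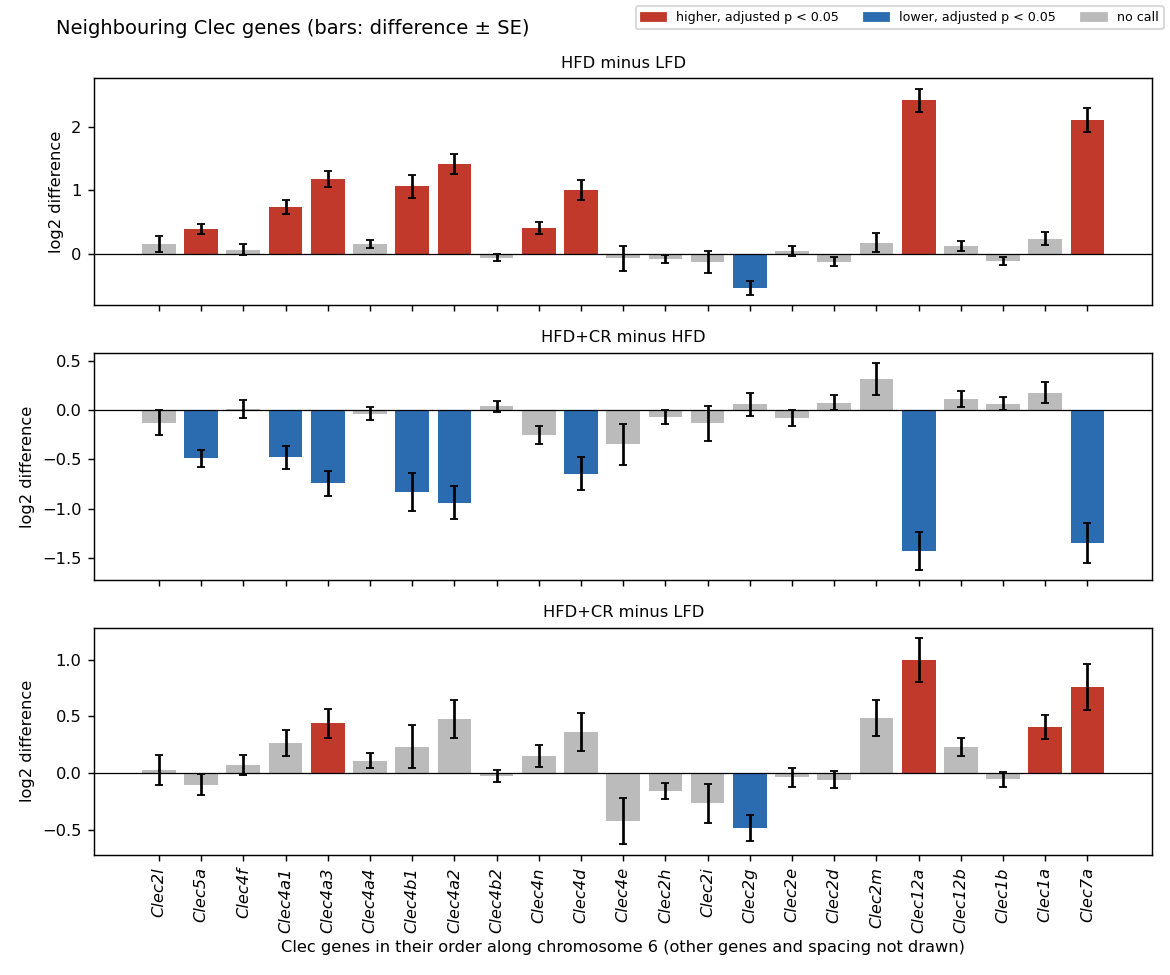
Log2 difference ± SE (y axes, each panel with its own scale) of the 23 Clec genes of chromosome 6 in their order along the chromosome (x axis, not to scale) for HFD minus LFD, HFD+CR minus HFD and HFD+CR minus LFD, coloured by call. Called genes sit beside genes with no call, as with Clec4d (1.01) and Clec4e (-0.08) in the first panel.

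Promoters are shown for Clec12a, Clec7a and Clec4a2, the members with the largest HFD minus LFD differences, and for Clec4d and Clec4e, neighbours of which only Clec4d passed. RefSeq windows of the 250 bases before the annotated start (GRCm38.p6) were matched for 25 of the 31 members. They were searched on both strands for GAGGAA, a core of the sites of PU.1, the transcription factor that specifies macrophages and other myeloid cells. The letters were found for 14 of the 25 members and for 25.9% of 27025 genes with windows. They were found for 8 of the 9 windowed members that were higher in HFD and for 6 of the other 16. Clec4a1 and Clec4a3 share the letters round their matches, as do Clec4b1 and Clec4b2, so the members are not independent. For Clec4a3 the match was in only 1 of its windows. Capitals mark GAGGAA or, where it lies on the other strand, TTCCTC. The windows are chr6:129349994-129350243 (plus strand) for Clec12a, chr6:129472780-129473029 (minus strand) for the first of 2 windows of Clec7a, chr6:123122440-123122689 (plus strand) for Clec4a2, chr6:123261857-123262106 (plus strand) for Clec4d and chr6:123289872-123290121 (minus strand) for Clec4e, each printed 5′ to 3′ on the gene's strand.
Clec12a: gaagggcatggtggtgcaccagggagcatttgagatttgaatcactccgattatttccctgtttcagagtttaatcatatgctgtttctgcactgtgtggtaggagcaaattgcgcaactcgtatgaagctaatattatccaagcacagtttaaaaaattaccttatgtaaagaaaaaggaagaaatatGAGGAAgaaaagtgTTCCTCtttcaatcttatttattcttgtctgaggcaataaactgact
Clec7a: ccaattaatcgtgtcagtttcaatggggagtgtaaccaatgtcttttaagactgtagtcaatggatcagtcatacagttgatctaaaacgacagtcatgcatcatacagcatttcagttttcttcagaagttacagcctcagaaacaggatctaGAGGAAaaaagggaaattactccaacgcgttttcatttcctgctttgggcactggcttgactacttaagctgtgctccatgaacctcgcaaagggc
Clec4a2: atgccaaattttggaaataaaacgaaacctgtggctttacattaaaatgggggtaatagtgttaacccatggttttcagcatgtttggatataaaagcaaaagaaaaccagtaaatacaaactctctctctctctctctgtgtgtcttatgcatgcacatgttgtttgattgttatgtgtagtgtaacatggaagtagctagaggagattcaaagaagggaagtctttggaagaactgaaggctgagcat
Clec4d: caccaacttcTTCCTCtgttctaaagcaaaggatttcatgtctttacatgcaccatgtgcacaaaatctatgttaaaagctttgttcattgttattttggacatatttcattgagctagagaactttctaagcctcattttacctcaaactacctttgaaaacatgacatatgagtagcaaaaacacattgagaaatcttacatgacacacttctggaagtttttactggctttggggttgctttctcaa
Clec4e: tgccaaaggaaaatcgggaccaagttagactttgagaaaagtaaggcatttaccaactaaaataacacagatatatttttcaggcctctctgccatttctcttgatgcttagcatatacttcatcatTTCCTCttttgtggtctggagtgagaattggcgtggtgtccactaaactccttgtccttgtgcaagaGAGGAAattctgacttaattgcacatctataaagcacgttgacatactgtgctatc
The match of Clec7a begins 96 bases before the start, those of Clec12a 61 and 47 bases, that of Clec4d 240 bases, and those of Clec4e 123 and 56 bases. Clec4a2, next after Clec12a and Clec7a in the size of its rise, had no match, and Clec4e, with no call, had 2. Clec2g, the member that was lower, had none in its window. TGANTCA, the letters of AP-1 sites, was found for 5 of the 25 members and 7.82% of all genes. TTGCNNAA, a form of C/EBP sites, was found for 4 and 10.8%. Of the 9 windowed members that were higher in HFD, 1 had TGANTCA and 2 had TTGCNNAA. CACGTG, an E-box, was found for 0 of the 25 and 6.86% of all genes. A match describes letters only, binding was not measured, and a link between matches and the rise in HFD was not tested.

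Genes through which these receptors signal changed in the same comparisons, which share arrays. The lists were chosen with earlier results of these data known. Of all genes, 16.5% were higher in HFD than in LFD, 11.3% lower in HFD+CR than in HFD and 5.8% higher in HFD+CR than in LFD. Of 13 measured adaptors and proximal kinases of the activating pathway, 11 were higher in HFD than in LFD and 0 lower, 11 were lower in HFD+CR than in HFD and 0 higher, and 4 were higher in HFD+CR than in LFD. Tyrobp, the adaptor of Clec5a, averaged 11.5 in HFD+CR, 12.5 in HFD and 10.9 in LFD mice, with differences of 1.54 ± 0.12 for HFD minus LFD, -0.94 ± 0.13 for HFD+CR minus HFD and 0.60 ± 0.13 for HFD+CR minus LFD (adjusted p = 5.8e-08, 5.83e-05 and 0.00641). Fcer1g, the adaptor of Clec4d, Clec4e and Clec4n, differed by 1.02 ± 0.08 for HFD minus LFD, -0.68 ± 0.08 for HFD+CR minus HFD and 0.33 ± 0.08 for HFD+CR minus LFD (adjusted p = 3.75e-08, 1.99e-05 and 0.0149). Blnk, an adaptor downstream of Syk, differed by 1.33 ± 0.12 and -1.13 ± 0.13 for HFD minus LFD and HFD+CR minus HFD. Further down, 5 of 12 genes of Card9 signalling were higher in HFD than in LFD, 5 were lower in HFD+CR than in HFD and 0 differed between HFD+CR and LFD by this test. Card9 itself differed by 0.46 ± 0.09 for HFD minus LFD and -0.45 ± 0.10 for HFD+CR minus HFD (adjusted p = 0.00109 and 0.00327).

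On the inhibitory side, 7 of 9 phosphatases and other brakes were higher in HFD than in LFD, where 16.5% of all genes were. In HFD+CR 7 were lower and 1 higher than in HFD, where 11.3% and 7.69% of all genes were. Lilrb4a, an inhibitory receptor of macrophages, differed by 1.43 ± 0.11 for HFD minus LFD and -0.85 ± 0.12 for HFD+CR minus HFD, and Inpp5d, the lipid phosphatase SHIP1, by 0.72 ± 0.09 and -0.55 ± 0.10. Ptpn6, the phosphatase SHP-1, was lower in HFD+CR than in HFD by -0.71 ± 0.13 (adjusted p = 0.000751). Of 8 known protein ligands or partners of Clec receptors, 5 were higher in HFD than in LFD and 2 lower, where 16.5% and 11.3% of all genes were. In HFD+CR against HFD 1 of them was higher and 3 were lower, where 7.69% and 11.3% of all genes were. Pdpn, the ligand of the Clec1b product, rose by 0.34 ± 0.10 in HFD against LFD (adjusted p = 0.0121). Anxa1, a ligand of the Clec7a product, rose by 0.89 ± 0.09 in the same comparison (adjusted p = 4.42e-07). A further list held 6 measured genes with Klrb1 or Klri symbols, some of which encode receptors for the Clr proteins of Clec2 genes. Klrb1f was lower in HFD than in LFD by -0.40 ± 0.07 and higher in HFD+CR than in HFD by 0.25 ± 0.08 (adjusted p = 0.000368 and 0.0247). Klrb1b was higher in HFD than in LFD by 0.35 ± 0.09 (adjusted p = 0.00775).

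Of 29 receptors with a C-type lectin domain and no Clec symbol, 6 (20.7%) were higher in HFD than in LFD and 4 (13.8%) lower, near the 16.5% and 11.3% of all genes. In HFD+CR against HFD 1 (3.45%) was higher and 6 (20.7%) lower, where 7.69% and 11.3% of all genes were. In HFD+CR against LFD 3 (10.3%) were higher and 1 (3.45%) lower, where 5.8% and 3.28% of all genes were. Mrc2, a collagen uptake receptor, had differences of 2.01 ± 0.13, -0.64 ± 0.14 and 1.37 ± 0.14 in these comparisons. Olr1, the oxidised LDL receptor gene next to Clec7a, had differences of 1.94 ± 0.16 for HFD minus LFD and -1.63 ± 0.17 for HFD+CR minus HFD. Thbd, thrombomodulin of endothelium, went the other way, at -1.19 ± 0.08 and 0.52 ± 0.09. Of 13 soluble collectins and lectican proteoglycans, 1 was higher in HFD than in LFD and 1 lower in HFD+CR than in HFD.

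General and lipid-associated macrophage markers moved in the same comparisons as many Clec receptors, and other myeloid lists held fewer calls. Of all genes, 16.5% were higher in HFD than in LFD, 11.3% lower in HFD+CR than in HFD and 5.8% higher in HFD+CR than in LFD. In the other directions, 11.3% were lower in HFD than in LFD and 7.69% higher in HFD+CR than in HFD. The mean of 8 macrophage genes ran from 10.4 to 10.6 in HFD+CR mice, 10.9 to 11.4 in HFD mice and 9.95 to 10.5 in LFD mice. Of these genes 7 were higher in HFD than in LFD, 7 lower and 1 higher in HFD+CR than in HFD, and 2 higher in HFD+CR than in LFD. Of 7 genes of lipid-associated macrophages, 6 were higher, 6 lower and 6 higher in the same comparisons, with means of 9.60 to 11.2 in HFD+CR, 11.7 to 12.1 in HFD and 8.78 to 9.31 in LFD mice. Neutrophil genes, 7 in all, averaged 6.83 to 6.95 in HFD+CR, 6.94 to 7.03 in HFD and 6.92 to 7.10 in LFD mice, and at least 3 of them lay below the array medians in every mouse of each group. Of 6 natural killer cell genes, 4 lay below the array medians in every mouse of each group, and 1 was lower in HFD than in LFD and 1 lower in HFD+CR than in HFD. Endothelial genes, which bear on Clec1a and Clec14a, held 1 lower call among 8 for HFD minus LFD and none in the other comparisons. Of 6 fibroblast and progenitor genes, 4 were higher in HFD than in LFD, 2 lower in HFD+CR than in HFD and 3 higher in HFD+CR than in LFD. The part of these cell types in the Clec results was not tested.

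Each Clec signal was also taken relative to the mean of the 8 macrophage genes of the same array, which shows unequal change and nothing more, since probe sets can differ in how steeply they follow RNA. Of the 13 members called between HFD and LFD, 4 changed by more than that mean: Clec12a by 1.56, Clec7a by 1.25, Clec4a2 by 0.55 and Clec4a3 by 0.32 (exact permutation p = 0.00216, 0.00216, 0.00216 and 0.00433, adjusted p = 0.00936 each over 93 such tests). The LFD signals of Clec4a2 were below their array medians, so that its size is uncertain. Single genes of the macrophage mean differed between HFD and LFD by -0.14 (Mertk) to 1.92 (Cd68). The differences of Clec4a2 (1.42) and Clec4a3 (1.19) lie within that range, and those of Clec12a (2.43) and Clec7a (2.12) above it. Clec11a and Clec3b stood lower relative to that mean in HFD than in LFD, by -0.34 and -0.40 (exact permutation p = 0.00216 and 0.0173), and Clec10a, Clec4a1, Clec4b1 and Clec4d did not pass. Clec2g, Clec5a and Clec4n also stood lower relative to the macrophage mean in HFD than in LFD, by -1.41, -0.48 and -0.46. Clec2g and Clec5a were below the array median on all arrays and Clec4n on most, so these values are not read. The part of the low signal in them was not tested. The 9 uncalled members below the array medians throughout had relative differences of -0.98 to -0.71 in the same comparison. Between HFD+CR and HFD, Clec12a and Clec7a were lower relative to the macrophage mean, by -0.75 and -0.67 without overlap (exact permutation p = 0.00433 each). Clec4a1 was higher relative to it by 0.20 (exact permutation p = 0.0303, adjusted p = 0.0494). Clec3a stood 0.48 higher relative to it, but its signals were below the array medians in all mice, so this is not read. The other 7 of the 11 members called did not pass. Between HFD+CR and LFD, Clec12a stood 0.81 higher relative to the mean (exact permutation p = 0.00433), and Clec7a 0.57 and Clec4a3 0.25 higher (exact permutation p = 0.026, adjusted p = 0.0439 each). Clec2g stood at -0.68 (exact permutation p = 0.00433) on signals below the array medians, and Clec1a did not pass.

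**Figure D5:**
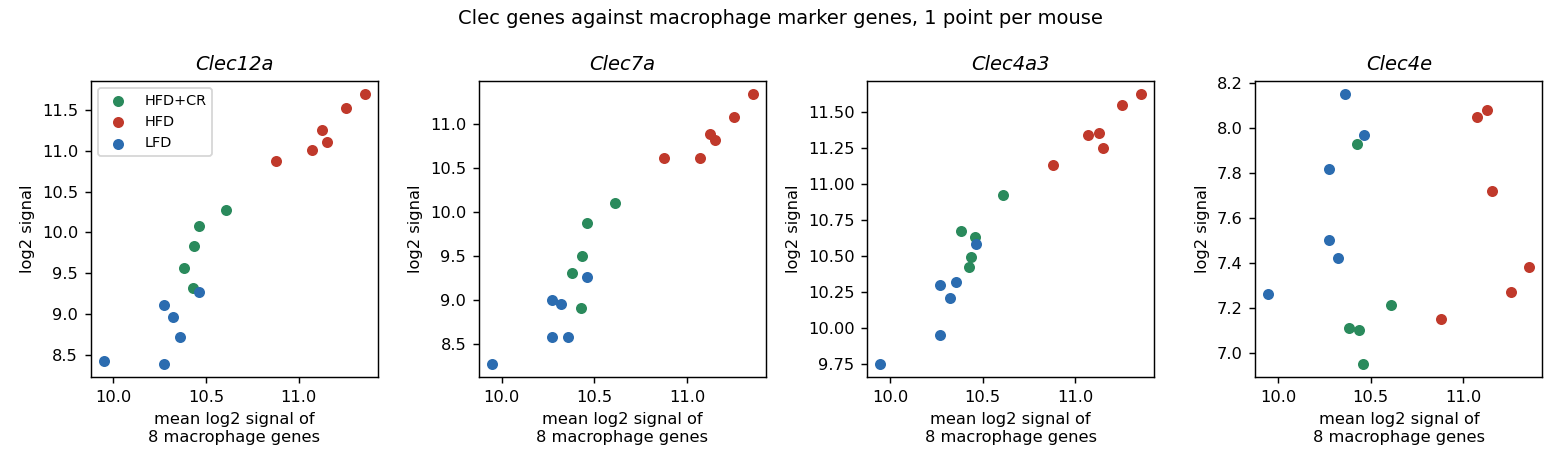
Log2 signal of Clec12a, Clec7a, Clec4a3 and Clec4e (y axes) against the mean log2 signal of 8 macrophage genes (x axes), 1 point per mouse for HFD+CR (green), HFD (red) and LFD (blue). For the first 3 genes HFD mice lie to the upper right, with macrophage means of 10.9 to 11.4, whereas Clec4e runs from 7.15 to 8.08 in HFD mice and from 7.26 to 8.15 in LFD mice.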

How the data were processed

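The authors deposited log2 values, 1 for each probe set and array. RMA, limma and R 3.5.0 are named, without their roles, per the submitters' processing notes. As background, RMA removes background signal, brings arrays to one distribution and combines the probes of a set. The genome build is not given in the sources used here, so gene positions are given only for RefSeq windows (GRCm38.p6). Per the labels' protocols the replicates were separate mice and the RNA integrity number was above 7. Values ran from 4.55 to 14.4.

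Of 33793 probe sets, 23521 had exactly 1 gene symbol, 1814 several and 8458 none. Per gene the probe set with the highest mean over 17 arrays was used, which left 22180 genes, without a filter on dim probe sets. Group means were fitted with lmFit and eBayes of limma 3.58.1, run in R 4.3.3 on the 17 arrays together (residual degrees of freedom 14, prior 3.63, no trend). The 3 contrasts were HFD minus LFD, HFD+CR minus HFD and HFD+CR minus LFD, with Benjamini-Hochberg adjustment over all genes and a threshold of 0.05. Exact permutation tests used scipy 1.17.1, and figures matplotlib 3.10.9 in Python 3.11.15. The fit was tested on simulated data. Precision is limited by how many arrays there were.

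The members and gene lists were chosen with earlier results of these data known. Values per mouse are given for up to 6 members per comparison with the largest differences among those that passed and for the members of a role that the text describes. Of other lists, up to 4 members per comparison that passed with the largest differences could be named, or the 2 with the smallest p. Same-numbered mice did not deviate together: over 16 pairs the correlation of deviations from group means ran from -0.11 to 0.41 (median 0.04, against -0.02 for other pairs), so the mouse numbers are not taken to pair the samples. The 31 alternatives left out arrays, changed scaling, filters, thresholds, the variance model and the probe set rule, or added the mouse number as a block. Promoter windows were those of the RefSeq table without chromosome 18.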

Additional observations from a re-analysis of the deposited data

Results flagged for a closer look

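In 9 of 93 groups of mice (31 genes in 3 diet groups) 1 mouse lay far from the others of its group by Dixon's test at the 95% level, where chance alone flags about 1 in 20, or 4.7 groups. Among the members with calls, Clec4a2 was 6.10 in LFD mouse 3, where the rest of the group ran from 6.79 to 7.02, and Clec4b1 was 6.34 in HFD mouse 5, against 7.02 to 7.40. Both genes kept their calls without these mice. Clec2m was 8.65 in HFD+CR mouse 1, against 7.43 to 7.78 in that group, and 7.87 in HFD mouse 5, against 7.37 to 7.53. Clec4e was 7.93 in HFD+CR mouse 2, against 6.95 to 7.21. Clec14a was 8.29 in LFD mouse 2, against 7.74 to 7.92. The remaining values lay below the array medians, where signals were not shown to be above background. These were Clec1b at 6.09 in LFD mouse 3 (5.68 to 5.76 in the others), Clec4a4 at 5.51 in HFD mouse 6 (5.17 to 5.28) and Clec4b2 at 6.10 in HFD+CR mouse 5 (5.83 to 5.87).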

How the results depend on the processing

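Of the 29 calls of single Clec genes, 22 held under each of up to 30 alternatives run for the gene, of which 15 were also at least 1.5-fold. None changed direction, and 55 of the 64 results without a call gained none. The alternatives are not all independent. Each member had 1 probe set, so averaging probe sets left the member signals unchanged. Leaving out the array with germ cell transcripts is the same as leaving out HFD+CR mouse 1. Leaving out 1 mouse at a time gave 1 to 2 lower genes for HFD minus LFD (1 as reported). For HFD+CR minus HFD it gave 9 to 11 lower genes (11 as reported), where 9.02% to 12.8% of all genes were lower. For HFD+CR minus LFD it gave 2 to 5 higher genes (4 as reported). That count of higher genes was 2 with only the arrays of the groups compared, without the 4 arrays with muscle or gland transcripts, without the array with germ cell transcripts and at 1.5-fold, and 1 at adjusted p under 0.01 or without LFD mice 3 and 6. With the mouse number as a replicate block it was 2, of which 1 was among the 4. In these settings 0.929% to 5.16% of all genes were higher. With only genes above the median level, 13 members were tested. For HFD minus LFD 6 were higher and 0 lower, where 29.9% and 18.7% of all genes were. For HFD+CR minus HFD 5 were lower, where 21.7% of all genes were. For HFD+CR minus LFD 5 were higher and 0 lower, where 13.3% and 7.62% of all genes were. Where counts were smaller here, fewer members had been tested. At 1.5-fold, 8 members were higher for HFD minus LFD, where 3.74% of all genes were. For HFD+CR minus HFD 7 were lower, where 2.27% of all genes were, and 0 were lower for the other comparisons. At adjusted p under 0.01, 12 were higher for HFD minus LFD, where 12.2% of all genes were. For HFD+CR minus HFD 8 were lower, where 7.26% of all genes were, and 0 were lower for HFD+CR minus LFD. The cause was not tested for the other changes.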
